A study of Homo sapiens with 6 samples.

Results

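The Kruppel-like factors described here were 10 genes, KLF2, KLF3, KLF4, KLF6, KLF7, KLF9, KLF10, KLF11, KLF13 and KLF16, taken by symbol from a table of 26485 entries. All 10 had an entry, 8 had counts high enough for a test, and KLF4 and KLF9 had no count in any library. The cells were REH, an established human line of B-precursor acute lymphoblastic leukemia that carries the ETV6-RUNX1 fusion, so that the values stand for 1 cell line, grown in RPMI medium with fetal bovine serum. One group was given ML141, which inhibits the GTPase CDC42, at 25 µM for 24 h, and the other was given DMSO alone for the same time. Each group had 3 libraries, from 3 independent experiments according to the design text, and the comparison addressed which transcripts change with the inhibitor.

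Kruppel-like factors are transcription factors that bind CACCC and GC-rich elements of promoters through zinc fingers at the end of the protein, the part the family shares with the SP factors. The remaining part of each protein differs and sets its partners. KLF3, KLF8 and KLF12 bind the corepressor CtBP, KLF9, KLF10, KLF11, KLF13, KLF14 and KLF16 bind the corepressor SIN3A, and KLF2, KLF4, KLF6 and KLF7 act mostly as activators with acetyltransferases. In lymphocytes the family is best known through KLF2, which is linked to quiescence and to homing receptors.

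With ML141, 5 of the 10 genes were higher and 1 was lower. The activators KLF2, KLF6 and KLF7 rose 5.94-fold, 2.34-fold and 2.32-fold, the CtBP partner KLF3 rose 1.67-fold and the SIN3A partner KLF13 rose 1.59-fold, while KLF10, also a SIN3A partner, fell 1.47-fold. KLF11 and KLF16 did not pass the test. Calls were made with edgeR's quasi-likelihood test at an adjusted p of 0.05 over all 11454 genes tested, of which 54.4% were called, 26.7% as higher and 27.7% as lower. The 5 higher and 1 lower members also had groups without overlap, as had 61.2% of all genes tested (30.5% higher and 30.7% lower). KLF2 passed the low-count filter through its ML141 libraries, so its call adds nothing to the count of higher members. The median log2 fold change of the 8 tested members was 0.71, against 0.02 over all genes tested, and it describes only members with enough counts. It includes KLF2, and without KLF2 the middle value was that of KLF13, 0.67. In such bulk libraries a change in the number of expressing cells and a change in RNA per cell cannot be told apart.

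The 300-base promoter windows of KLF2, KLF6 and KLF13 are shown because these 3 genes rose and each has a single start in the RefSeq table for GRCh38.p14, which holds windows for 8 of the 10 members. Each runs from 250 bases before to 50 after the start site, 5′ to 3′ on the gene's strand, and capitals mark every match on either strand to GGGCGG (GC box), CACCC, a MEF2-type element, CCAAT (a box of that name), TGACGTCA (CRE), TGATGNAA (an ATF4-type element) or GTAAACA (a FOXO-type element). CCAAT and the MEF2-type element (a palindrome of CTA and TAG around 4 free bases) were added after the windows had been read.
KLF2, chr19:16324576-16324875, plus strand: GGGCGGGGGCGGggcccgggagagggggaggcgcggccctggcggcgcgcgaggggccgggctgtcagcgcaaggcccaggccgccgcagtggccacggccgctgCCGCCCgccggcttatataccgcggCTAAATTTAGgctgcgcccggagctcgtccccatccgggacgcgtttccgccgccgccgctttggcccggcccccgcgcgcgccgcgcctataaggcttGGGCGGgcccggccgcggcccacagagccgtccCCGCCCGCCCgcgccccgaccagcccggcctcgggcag
KLF6, chr10:3785160-3785459, minus strand: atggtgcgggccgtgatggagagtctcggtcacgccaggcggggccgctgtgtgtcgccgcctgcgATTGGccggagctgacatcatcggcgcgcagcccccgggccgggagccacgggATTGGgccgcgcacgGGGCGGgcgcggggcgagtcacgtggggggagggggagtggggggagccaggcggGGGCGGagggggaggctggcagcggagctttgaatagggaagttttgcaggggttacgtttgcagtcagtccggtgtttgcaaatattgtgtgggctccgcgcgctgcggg
KLF13, chr15:31326585-31326884, plus strand: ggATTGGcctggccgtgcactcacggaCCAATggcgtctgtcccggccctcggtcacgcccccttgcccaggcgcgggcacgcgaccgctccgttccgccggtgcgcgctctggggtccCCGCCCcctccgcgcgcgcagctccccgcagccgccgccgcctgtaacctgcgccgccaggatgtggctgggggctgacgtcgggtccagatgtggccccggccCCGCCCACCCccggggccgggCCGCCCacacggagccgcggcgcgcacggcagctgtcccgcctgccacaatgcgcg

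The 3 windows hold 6, 2 and 3 GC boxes, a motif found in 45.0% of all 35116 promoter windows. Their GC content is 80.7%, 70.7% and 78.3%, against a median of 58.7% over all windows. KLF2 alone of the 3 holds a MEF2-type element, 120 bases before the start, and 2.73% of all windows hold such a match. It is not particular to KLF2, since windows of KLF11, which did not pass the test, and of KLF12 hold such a match too. KLF6 and KLF13 each hold 2 CCAAT boxes (34.6% of all windows), and the CACCC match of KLF13 overlaps a GC box (59.9% of all windows hold CACCC). Neither TGACGTCA (1.85% of all windows), TGATGNAA (3.62%) nor GTAAACA (3.42%) occurs in the 3 windows. KLF16, which did not pass the test, has 7 GC boxes in its window, and KLF9, which had no count, has none and a GC content of 32.7%. These are matches of letters, and no binding was measured.

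Total counts per library were 8284299 to 12308039, and a single count was worth 0.0754 to 0.130 CPM (read counts relative to TMM-scaled library size). ML141 replicate 1 stood apart from the other ML141 libraries, with a chi-square per degree of freedom of 19.5 and 9.85 against replicates 2 and 3, which differed from each other by 7.28. DMSO replicate 1 also stood apart, with 4.50 and 5.59 against DMSO replicates 2 and 3, which differed from each other by 3.02. All 14 B-precursor markers had counts, and their summed level was 7628 to 8355 CPM in DMSO and 9539 to 9881 CPM in ML141. T cell markers summed to at most 0.344 CPM and erythroid markers to at most 0.104 CPM. Of 7 myeloid markers, ELANE and FCGR3A were at 0, and the list's sum of 43.8 to 45.3 CPM in DMSO and 29.3 to 31.0 CPM in ML141 was mostly MPO, at 41.1 to 41.8 and 24.8 to 27.6 CPM. The part of these shifts in the results was not tested.

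**Figure D1:**
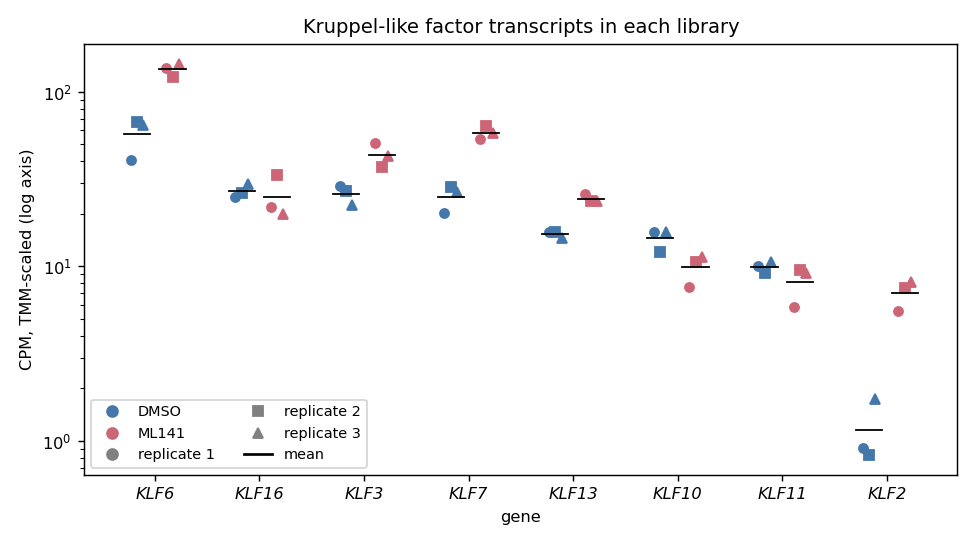
CPM of the 8 tested members (log axis) in each of 6 libraries, with DMSO in blue, ML141 in red, a symbol per replicate and a line at each mean. The ML141 points lie above all DMSO points for KLF2, KLF3, KLF6, KLF7 and KLF13, below them for KLF10, and overlap the DMSO range or lie on both sides of it for KLF11 and KLF16.

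Among the activators, KLF2 (chromosome 19, 16324817 to 16327874, GENCODE release 29 on GRCh38), the regulator of lymphocyte quiescence, had 7, 8 and 18 counts in DMSO replicates 1, 2 and 3 and 60, 99 and 95 in ML141 replicates 1, 2 and 3. In CPM these were 0.908, 0.829 and 1.74 against 5.56, 7.47 and 8.17. The groups did not overlap, and the lowest ML141 library was above 3 times the highest DMSO library. The log2 fold change was 2.57 (SE 0.297, 95% confidence interval 1.92 to 3.22, edgeR adjusted p = 2.11e-05). KLF2 was kept for the test through its ML141 libraries. Without a filter its value was 2.59 (edgeR adjusted p = 3.59e-11). That fit uses the same libraries and is no separate support for the call. The ratio of summed counts, 254 against 33, was 5.98 with a Clopper-Pearson interval of 4.15 to 8.88, which covers counting error only.

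KLF6 (chromosome 10, 3775996 to 3785281), a broadly expressed growth-suppressive factor, was at 40.6, 66.7 and 64.2 CPM in DMSO and at 135.9, 121.9 and 144.9 CPM in ML141. DMSO replicate 1 was the low library of its group, and the groups did not overlap. This gave a log2 fold change of 1.22 (SE 0.154, 0.89 to 1.56, edgeR adjusted p = 4.13e-05). KLF7 (chromosome 2, 207074137 to 207167267), a factor first known from neurons and close to KLF6 in sequence, was at 20.2, 28.3 and 26.5 CPM in DMSO and at 53.7, 63.2 and 58.0 CPM in ML141. DMSO replicate 1 was again lowest, and the groups did not overlap. KLF7 had a log2 fold change of 1.22 (SE 0.130, 0.93 to 1.50, edgeR adjusted p = 1.19e-05).

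KLF4, the pluripotency factor of this class, had 0 counts in all 6 libraries. A count of 0 allows up to 0.289 to 0.389 CPM in the DMSO libraries and 0.226 to 0.278 CPM in the ML141 libraries, a limit of 3 counts per library for counting error only. KLF4 was therefore not detected in either group. The limit holds only if reads of the gene could be assigned to its entry, which was not tested.

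KLF3 (chromosome 4, 38664196 to 38701042), a repressor that acts through CtBP and is expressed across the B lineage, was at 28.7, 26.9 and 22.5 CPM in DMSO and at 50.8, 37.1 and 42.6 CPM in ML141. ML141 replicate 1 was the high library, and the groups did not overlap. The log2 fold change was 0.74 (SE 0.139, 0.44 to 1.04, edgeR adjusted p = 0.000768). KLF3 shares 4.44% of its exon bases with KLF3-AS1 on the opposite strand, which had 3 counts in each DMSO library and 6, 5 and 3 in ML141.

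Members that bind SIN3A went both ways. KLF13 (chromosome 15, 31326855 to 31435665), a factor known from lymphocyte gene control, was at 15.7, 15.8 and 14.6 CPM in DMSO and at 25.8, 23.8 and 23.6 CPM in ML141. Its libraries lay closer together than those of any other tested member, with coefficients of variation of 4.38% and 5.08%, and the groups did not overlap. This gave a log2 fold change of 0.67 (SE 0.119, 0.41 to 0.93, edgeR adjusted p = 0.000525).

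KLF10, known as an early gene of TGF-beta signalling, was at 15.8, 12.0 and 15.8 CPM in DMSO and at 7.60, 10.6 and 11.3 CPM in ML141. Every ML141 library was below every DMSO library, by a small margin between DMSO replicate 2 and ML141 replicate 3. The log2 fold change was -0.55 (SE 0.183, -0.95 to -0.16, edgeR adjusted p = 0.0222). The call did not hold without DMSO replicate 1 (log2 -0.50, adjusted p = 0.0719) or DMSO replicate 3 (-0.49, adjusted p = 0.0851), nor with upper-quartile factors (-0.45, 0.0722) or library totals (-0.38, 0.113). In the authors' deposited table KLF10 has a log2 fold change of -0.565 and an adjusted p of 0.0195.

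KLF11 (chromosome 2, 10042849 to 10054836), the close relative of KLF10, was at 9.98, 9.12 and 10.6 CPM in DMSO and at 5.84, 9.50 and 9.11 CPM in ML141. ML141 replicate 1 was low and the other ML141 libraries overlapped the DMSO range. This gave a log2 fold change of -0.27, with an interval of -0.70 to 0.15 (edgeR adjusted p = 0.256), so that a decrease to 0.615 and an increase to 1.11 times the DMSO level both lay within it. Without ML141 replicate 1 the value was -0.09 (adjusted p = 0.671).

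KLF16 (chromosome 19, 1852399 to 1863568), a factor named for dopamine receptor promoters, was at 24.9, 26.4 and 29.7 CPM in DMSO and at 21.9, 33.2 and 19.9 CPM in ML141. ML141 replicate 2 was the highest of all 6 libraries and the other ML141 libraries were the lowest. The log2 fold change was -0.11, with an interval of -0.50 to 0.28 (edgeR adjusted p = 0.619), and it was 0.064 with library totals and 0.028 without ML141 replicate 3. Without ML141 replicate 2 KLF16 passed as lower (-0.38, adjusted p = 0.0288). Of its exon bases 16.3% overlap AC012615.3 on the opposite strand, and of those of KLF11 9.68% overlap AC104794.4. Neither of these antisense genes has an entry. Strand is not marked by the kit, so their reads in the shared stretches may be included in the counts of KLF16 and KLF11.

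KLF9, a SIN3A partner induced by glucocorticoid and thyroid hormones, had 0 counts in all 6 libraries, with the same limits as KLF4. Of the genes around that induction, NR3C1, the glucocorticoid receptor, rose 1.90-fold from 75.1 ± 1.86 to 143.2 ± 6.48 CPM (SD, n = 3), and TSC22D3, the target known as GILZ, rose 6.07-fold from 33.1 ± 4.50 CPM. FKBP5, another receptor target, fell 2.74-fold from 398 ± 12.7 CPM. In all, 4 of 8 tested genes of that list were higher and 2 were lower, with a median of 0.20. Over all genes tested 26.7% were higher and 27.7% lower. PER1, the second lower gene, fell 1.36-fold, and was not past the test without DMSO replicate 2 (adjusted p = 0.0857), DMSO replicate 3 (0.134), ML141 replicate 1 (0.0556) or ML141 replicate 3 (0.0949), nor with upper-quartile factors (0.107) or library totals (0.179).

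**Figure D2:**
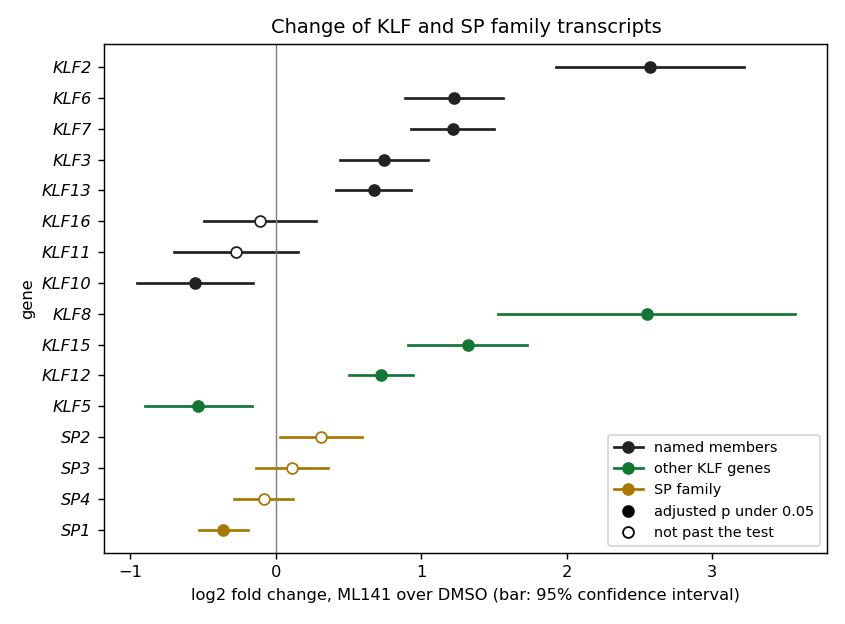
Log2 fold change of ML141 over DMSO with its 95% confidence interval for the 8 tested members (black), the other KLF genes (green) and the SP genes (amber), filled where the adjusted p is under 0.05. KLF2 and KLF8 lie at 2.57 and 2.55, KLF6 and KLF7 at 1.22 each, and the SP genes between -0.36 and 0.31.

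Of the 8 other genes of the family, KLF18 had no entry and 4 were tested. Of those, 3 were higher and 1 lower, beside 26.7% and 27.7% of all genes tested. The CtBP partner KLF8 had 2 counts in each DMSO library and 16, 13 and 18 in ML141, whose scaled sums stood at a ratio of 6.09 (Clopper-Pearson interval 2.60 to 17.4, counting error only). It passed the filter only through the ML141 group, so its call adds nothing to that count. KLF12, also a CtBP partner, rose from 70.2 ± 0.65 to 116 ± 14.7 CPM (log2 0.72, SE 0.0998). KLF15, a factor of metabolic tissues, rose from 3.11 ± 0.33 to 7.81 ± 0.26 CPM (1.32, SE 0.187).

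KLF5, a factor of proliferating epithelia, fell from 8.95 ± 1.03 to 6.21 ± 0.39 CPM (log2 -0.53, SE 0.169, edgeR adjusted p = 0.0186). That call was lost without DMSO replicate 2 (adjusted p = 0.0704), DMSO replicate 3 (0.0757) or ML141 replicate 3 (0.0711), and with upper-quartile factors (0.0524) or library totals (0.0916). KLF1, the erythroid factor, had 1 count in DMSO replicate 3 and 0 in the other 5 libraries, KLF17 had 1 count in DMSO and 3 in ML141, and KLF14 had none.

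Of the 9 SP genes 4 were tested. By edgeR 0 were higher (1, SP2, at an unadjusted p of 0.0348), as also by DESeq2 and limma-voom, and 1 was lower. The shares over all genes tested were 26.7% higher and 27.7% lower. SP1, the broadly expressed GC-box factor, fell 1.28-fold from 260.8 ± 4.50 to 203 ± 12.4 CPM (log2 -0.36, SE 0.0766). SP2, SP3 and SP4 were at 0.31, 0.11 and -0.08. SP2 passed as higher without DMSO replicate 3 (adjusted p = 0.0389) or ML141 replicate 1 (0.0142), without a filter (0.0373), and with upper-quartile factors (0.0291) or library totals (0.0119), where SP3 passed too (0.0347) and SP4 was at 0.090. SP3 was at -0.024 without ML141 replicate 1. SP6 and SP9 had at most 9 counts in a library, and SP5, SP7 and SP8 had none. The difference between the SP and KLF genes was not tested.

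Levels of different genes were compared as CPM per kb of exon (union of the exons in the GENCODE basic set). In DMSO the most abundant of the KLF genes in the table were KLF6, at 9.57 ± 2.41 CPM per kb, and KLF16, at 9.14 ± 0.83, whose ranges overlapped. KLF12 followed at 6.60 ± 0.061 and KLF3 at 4.34 ± 0.53, each clear of the gene above it. KLF10, at 3.63 ± 0.55, overlapped KLF3, and from there KLF7 (2.90 ± 0.49), KLF5 (2.39 ± 0.28), KLF11 (2.31 ± 0.17) and KLF13 (2.23 ± 0.098) each overlapped the gene above. KLF15 (1.21 ± 0.13), KLF2 (0.57 ± 0.25) and KLF8 (0.043 ± 0.0069) came next in that order, each below the range of the gene before it.

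In ML141 KLF6 stood alone at 22.5 ± 1.93 CPM per kb, above KLF12 at 10.9 ± 1.38. KLF16 (8.45 ± 2.43), KLF3 (7.25 ± 1.15) and KLF7 (6.76 ± 0.55) followed with overlapping ranges. KLF13 (3.55 ± 0.18) and KLF2 (3.50 ± 0.67), far apart in DMSO, overlapped in ML141. KLF10 (2.46 ± 0.50) and KLF11 (1.90 ± 0.47) came after KLF15 (3.03 ± 0.10), and KLF10 lay below its range. The order was the same in both groups with the length of the longest transcript, which moved the DMSO level of KLF6 to 12.3 and that of KLF3 to 5.08 CPM per kb.

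**Figure D3:**
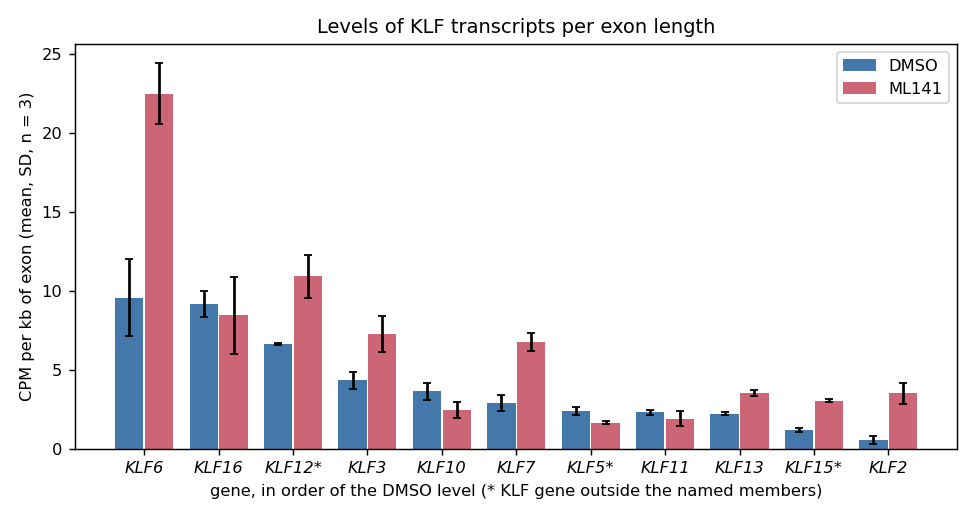
Mean CPM per kb of exon, with SD over 3 libraries, of 11 KLF genes in DMSO (blue) and ML141 (red), in order of the DMSO level. KLF6 and KLF16 stand at 9.57 and 9.14 in DMSO and at 22.5 and 8.45 in ML141.

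The summed level of the family was 41.2 to 47.5 CPM per kb in DMSO and 72.0 to 72.4 in ML141, without overlap. KLF6 made up 21.1% ± 4.08 of that sum in DMSO and 31.1% ± 2.72 in ML141. The share of KLF16 was 20.3% ± 0.89 and 11.7% ± 3.34, and that of KLF2 was 1.26% ± 0.48 and 4.85% ± 0.92. A share falls when other members rise, so these values describe the composition and not the change of each gene.

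Ratios of members within a library do not depend on scaling, and 3 were taken after the values had been seen. KLF6 over KLF16, per kb, was 0.806, 1.25 and 1.07 in DMSO and 3.07, 1.82 and 3.61 in ML141. KLF2 over KLF6 was 0.0662, 0.0368 and 0.0800 in DMSO and 0.121, 0.181 and 0.167 in ML141. Both ratios were higher in every ML141 library (2-sided exact permutation p = 0.1, the smallest that 3 against 3 can give, 0.15 adjusted over the 3 ratios). KLF6 over KLF7 was 2.90, 3.41 and 3.50 in DMSO and 3.65, 2.79 and 3.61 in ML141, where the groups overlapped (exact permutation p = 0.7).

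Genes that act with or on the family were taken from lists and are given by counts, beside the 26.7% higher and 27.7% lower of all genes. Those shares hold for all 6 libraries. With 1 library left out, the calls over all genes went from 3059 higher and 3171 lower to 2388 to 3195 higher and 2689 to 3372 lower. Of 17 genes of the SIN3 corepressor, 4 were higher (2 without DMSO replicate 3) and 7 lower, with a median of -0.16. The histone-binding subunits RBBP7 and RBBP4 had log2 fold changes of -1.04 (SE 0.0760) and -0.75 (SE 0.0737), from 325 ± 6.12 and 874 ± 32.5 CPM. The scaffold SIN3B was at 0.59 (SE 0.114) and SAP30L at 0.47 (SE 0.120).

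Of 7 tested genes of the CtBP corepressor 2 were higher and 2 lower, with a median of -0.09. CTBP2, one of the CtBP proteins itself, rose 1.63-fold from 196.3 ± 13.6 to 320.7 ± 13.0 CPM, and its partner ZNF217 rose 1.57-fold. The histone demethylase KDM1A fell 1.53-fold from 621 ± 34.2 CPM. RCOR1 fell 1.25-fold. Leaving out DMSO replicate 2 (adjusted p = 0.135) or ML141 replicate 3 (0.0557) removed that call and left 1 lower gene, and so did upper-quartile factors (0.129) or library totals (0.270).

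Of 5 acetyltransferase coactivators 3 were higher and 1 lower, with a median of 0.25. CREBBP, the CBP acetyltransferase, rose 1.70-fold from 261 ± 12.1 to 443 ± 18.2 CPM. EP300, its paralog, rose 1.19-fold, but did not pass when DMSO replicate 1, 2 or 3 or ML141 replicate 2 was left out (adjusted p = 0.0754, 0.0963, 0.0869 and 0.0821) or with GC and length offsets (0.114). KAT2A fell 1.33-fold, but did not pass when DMSO replicate 1, 2 or 3 or ML141 replicate 3 was left out (adjusted p = 0.0538, 0.0558, 0.0852 and 0.0996), nor with upper-quartile factors (0.112) or library totals (0.193). Without any one of the DMSO libraries 1 gene of this list was higher and 0 were lower.

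Of 7 ubiquitin ligases that act on KLF proteins 1 was higher and 1 lower, with a median of 0.10, and 2 were higher without ML141 replicate 2. FBXO32, an F-box protein that targets KLF4, had 8, 8 and 12 counts in DMSO and 163, 140 and 132 in ML141, a fitted fold of 12.1. It was kept for the test through its ML141 libraries, so the 1 higher gene of this list is no support for a direction of the list, and the stricter filter leaves it untested. FBXW7, which targets KLF2 and KLF13 among others, fell 1.30-fold from 197.8 ± 18.7 to 152.5 ± 10.8 CPM, a call lost with library totals (adjusted p = 0.0676).

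Inputs to KLF2, which are the MEK5, ERK5 and MEF2 pathway with class II histone deacetylases and FOXO factors, had 10 of 15 tested genes higher and 1 lower, with a median of 0.30. With 1 library left out, 7 to 10 genes of the list were higher. The 10 include the deacetylases HDAC4 and HDAC7. FOXO1, a known activator of KLF2 transcription, rose 1.50-fold from 197.1 ± 4.95 to 295.3 ± 13.8 CPM, and MAP2K5, the kinase MEK5, rose 1.63-fold from 31.8 ± 1.73 CPM. Class II deacetylases, which repress MEF2 factors, differed among themselves. HDAC9 fell 2.87-fold from 23.5 ± 2.64 to 8.17 ± 0.68 CPM. HDAC4 and HDAC7, named after their values were seen, were called higher at log2 0.27 and 0.30 (edgeR adjusted p = 0.0294 and 0.0441), and HDAC5 was at 0.14 (0.264). HDAC4 did not pass without DMSO replicate 1 or 2 or ML141 replicate 2 or 3 (adjusted p = 0.0871, 0.127, 0.0536 and 0.0921) or with GC and length offsets (0.242). HDAC7 did not pass without DMSO replicate 1, 2 or 3 or ML141 replicate 2 or 3 (0.159, 0.0969, 0.0663, 0.164 and 0.104) or by limma-voom (0.0552). Without ML141 replicate 1, 2 genes of the list were lower.

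In the TGF-beta list, whose pathway induces KLF10 and KLF11, 7 of 12 tested genes were higher and 1 lower, with a median of 0.29, against 4 higher without DMSO replicate 2 or DMSO replicate 3. The counts of lower genes were 2 without DMSO replicate 1 and 3 without ML141 replicate 2. The nuclear corepressors TGIF1 and SKIL rose 2.34-fold and 1.89-fold, from 16.0 ± 2.32 and 90.9 ± 5.83 CPM. TGFBR2, the type II receptor, fell 1.58-fold from 200.04 ± 14.6 to 126.8 ± 10.9 CPM.

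Of 21 genes known as controlled by KLF proteins 10 were tested, and 6 were higher and 2 lower, with a median of 0.80. NOS3, an endothelial target of KLF2, rose 3.09-fold from a low level of 1.34 ± 0.20 CPM, and CDKN1B, the cell cycle inhibitor p27, rose 1.83-fold from 38.7 ± 3.49 CPM. MYC, the growth-promoting transcription factor, fell 1.56-fold from 285.8 ± 20.4 CPM. S1PR1, ITGB7, CCR7 and CXCR5, homing genes of lymphocytes singled out after their values were seen, were under the filter in both groups, at mean levels of at most 0.452 CPM. CDC42, whose product ML141 inhibits, was 277.4 ± 2.50 CPM in DMSO and 201.5 ± 10.8 CPM in ML141.

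**Figure D4:**
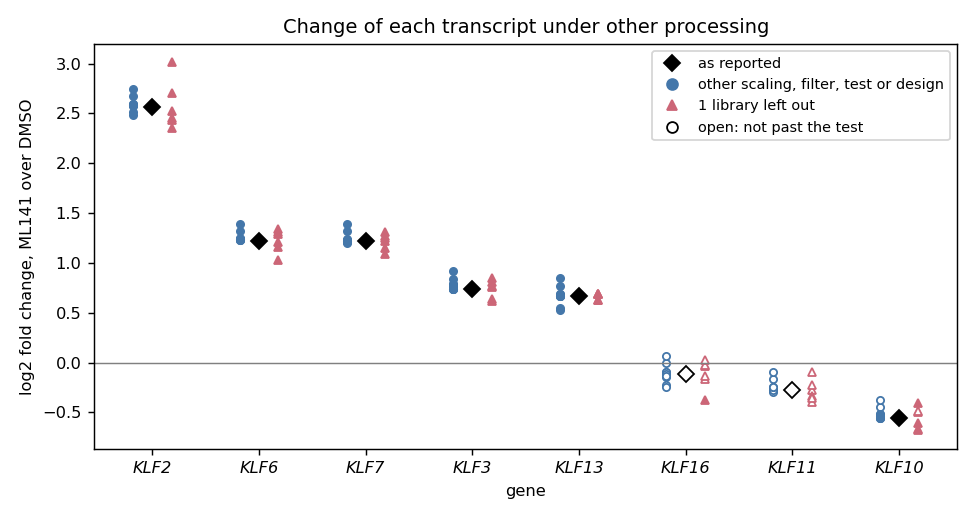
Log2 fold change of the 8 tested members as reported (diamond), under other scalings, filters, tests or designs (blue circles) and with 1 library left out (red triangles), with open symbols where the adjusted p is 0.05 or more. KLF2, KLF3, KLF6, KLF7 and KLF13 stay above 0 with filled symbols at all settings, and KLF10 stays below 0 with 4 open symbols.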

How the data were processed

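The 6 libraries of REH RNA were prepared with the Illumina TruSeq RNA v2 kit, per the labels' protocols. The deposited counts are whole numbers per gene symbol, not normalized. The submitters' processing notes list hg38, featureCounts, DESeq2, Picard, Bowtie2, Trimmomatic and bcl2fastq 2.19, while their settings and the annotation are not stated there. As Bowtie2 makes no spliced alignments, levels per exon length depend on its reference. The deposited scores (counts over size factors, rounded by the authors), mean signal, ratio, log2 fold change and p-value columns entered no test, and the authors' comparison appears only where named.

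Counts were matched to samples through the column names and sample descriptions. Genes were kept with edgeR 4.0.16 filterByExpr (minimum count 10, minimum total 15), scaled with TMM and tested with glmQLFit and glmQLFTest in R 4.3.3, a model of group alone, 2-sided, and p-values were adjusted by Benjamini-Hochberg over 11454 genes, with 0.05 as threshold. SE is the log2 fold change over the square root of F. CPM use TMM-scaled library sizes. Libraries of a group differed by more than sampling noise, so none was merged. Tests were checked on simulated data with few changed genes and the same spread between libraries for every gene. That check does not cover scaling where many genes change, or libraries that stand apart. Alternatives used limma 3.58.1, DESeq2 1.42.0, other scalings and filters, offsets for GC content and length (loess span 0.5, available for 94.7% of tested genes), a replicate block and leaving out each library. Promoter windows are RefSeq's and positions GENCODE's, 1-based. Processed pseudogene copies are annotated for KLF2, KLF3, KLF4 and KLF7, and reads shared with them could be lost or misplaced.

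The members and lists were chosen with earlier results of these data known. Named genes were all members, the other KLF and SP genes, CDC42, and per list at most 2 called genes per direction, by smallest p. One gene that this rule names is not reported here.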

Additional observations from a re-analysis of the deposited data

How the results depend on the processing

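KLF2, KLF3, KLF6, KLF7 and KLF13 were higher and past the test in 80 of 80 values over 16 alternatives each. These alternatives reuse the same libraries, and KLF2 was kept by the main filter through its ML141 libraries. Upper-quartile factors and library totals moved the median of all genes by 0.10 and 0.17. They moved the share of called genes that were higher from 49.1% to 59.5% and 66.1%. Relative to that median KLF10 lay at -0.57 with each of 4 scalings. A change of scaling shifts all genes nearly alike, so this sameness was fixed in advance and is no check of the KLF10 decrease. With upper-quartile factors and library totals KLF10 was at -0.45 (edgeR adjusted p = 0.0722) and -0.38 (0.113), which leaves 0 lower members. It was at -0.68 to -0.41 with 1 library left out. With 1 library left out 0 to 2 members were lower, and the count of 2, without ML141 replicate 2, includes KLF16. KLF16 was at 0.064 with library totals and -0.38 to 0.028 with 1 library left out; SP4 was at 0.019 and 0.090 with upper-quartile factors and library totals, and SP3 at -0.024 to 0.22 with 1 library left out. HDAC5 was at -0.0014 and -0.0092 with GC and length offsets, alone and with the replicate block.

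Counts in lists moved as follows. With upper-quartile factors and library totals 0 other KLF genes were lower, 1 and 2 SP genes higher, 1 and 1 CtBP genes lower, 0 and 0 acetyltransferases lower, 3 and 4 ubiquitin ligases higher, 1 and 1 hormone receptor genes lower, and with library totals 0 ligases lower. Without a filter 1 SP gene was higher and 2 TGF-beta genes lower, and the stricter filter left 0 ligases higher, since FBXO32 was not tested. With GC and length offsets, alone or with the replicate block, 4 CtBP genes and 3 TGF-beta genes were lower and 2 ligases higher. With 1 library left out, lower genes numbered 0 to 1 (other KLF), 5 to 8 (SIN3), 1 to 2 (CtBP), 0 to 1 (acetyltransferases), 1 to 2 (KLF2 inputs), 1 to 3 (TGF-beta) and 1 to 2 (hormone receptors). Higher genes numbered 0 to 1 (SP), 2 to 4 (SIN3), 1 to 2 (acetyltransferases), 1 to 2 (ligases), 7 to 10 (KLF2 inputs), 4 to 7 (TGF-beta), 3 to 4 (hormone receptors) and 6 to 7 (genes controlled by KLF proteins). Calls over all genes moved as well, to 2388 to 3195 higher and 2689 to 3372 lower, against 3059 and 3171 with all libraries. They were fewest without DMSO replicate 2, at 5077 of 11636 genes tested, so losses in these lists are not particular to them. The cause was not tested.

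Same-numbered libraries had correlated deviations of 0.37, 0.08 and 0.18 for replicates 1, 2 and 3. ML141 replicate 2 correlated best with DMSO replicate 3 (0.29), while the other differently numbered libraries stood at -0.37 to -0.029. Same-numbered libraries carry the same tag in both groups' column names, and no label says what it marks. The tag of replicate 1, the library that stood apart in each group, has another form than the tags of replicates 2 and 3. Its part in the results was not tested. Deviations within a group of 3 libraries depend on each other, so these correlations cannot decide whether the numbers pair samples. The main test used group alone, and a pairing by number enters only through the replicate block. With the replicate block 6979 genes were called against 6230, 5 members were higher and 1 lower, 1 SP gene was higher (SP2, adjusted p = 0.0144), 2 with the offsets as well (SP2, 0.0266, and SP3, 0.0378) and 3 TGF-beta genes lower.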

Other observations

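Pentamers of the letters ATTTA, a core of AU-rich elements that shorten mRNA life, were counted in the longest annotated 3′ UTR of each gene, a check chosen after the changes were known. KLF2 had 3 in 843 bases, or 3.56 per kb, a density above 80.1% of 10063 tested genes with a UTR of at least 100 bases. KLF7 had 20 in 7076 bases (2.83 per kb), KLF6 had 6 in 3556 (1.69 per kb) and KLF13 had 5 in 5600 (0.893 per kb), against a median of 1.76 per kb. KLF10, which was lower, had 2.22 per kb, and KLF11 had 2.58. The 5 members that rose thus lie on both sides of that median.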
